A study of Mus musculus with 2 samples.

Results

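Chemokines are small secreted proteins that attract leukocytes, and their receptors are G protein-coupled receptors on the attracted cells. All 66 rows of the feature list whose symbols belong to a chemokine ligand or to a conventional or atypical (Ackr) chemokine receptor were taken, out of 32285 genes. Of these, 44 were ligand and 22 were receptor rows, and 50 (33 ligands and 17 receptors) held at least 20 unique molecular identifiers (UMIs, each tagging 1 captured mRNA molecule) over both libraries and are described here. Another 5 rows held 1 to 19 UMIs: Ackr1 had 17, Cxcl15 13, Ackr2 7, Ccr8 5 and Ccr3 3. The remaining 11 rows held 0 UMIs, among them Cxcr1, Ccl26 and second copies of Ccl19, Ccl21a and Ccl27a, so the values of those 3 genes are uncertain where reads could be shared with the copies.

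The study compared single cells of polyps from 3 Lkb1flox/+;Myh11-Cre/ERT2 mice (the Lkb1_Het library) with single cells of normal duodenum from 3 Lkb1+/+;Myh11-Cre/ERT2 mice (the WT library). Every mouse of either group carried Myh11-Cre/ERT2, an inducible Cre recombinase driven by the smooth-muscle myosin promoter, and the polyp mice had 1 floxed allele of Lkb1, a serine/threonine kinase whose mutation underlies Peutz-Jeghers polyposis. The age of the mice and the inducing treatment are not given in the labels. The source label of both samples names duodenum, so the gut site of the polyps is not settled. Each group is 1 library that pools 3 mice, so no test between groups was possible, and differences between mice, tissue pieces and library preparations cannot be told apart from the genotype. All intervals below are exact 95% intervals that cover counting error only.

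The ligand-receptor pairs act as addresses in the gut. Ccl25, made by small-intestinal epithelium, recruits cells that carry Ccr9, Ccl28 recruits plasma cells through Ccr10, and Ccl20 recruits cells through Ccr6. Inflammatory CC ligands such as Ccl2 and Ccl7 draw monocytes through Ccr2, the CXC ligands Cxcl1, Cxcl2, Cxcl3 and Cxcl5 draw neutrophils through Cxcr2, and the interferon-induced ligands Cxcl9 and Cxcl10 draw activated T cells through Cxcr3. Ackr3 and Ackr4 bind chemokines without classical signalling and clear them.

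The matrices held 39222238 UMIs in 9950 barcodes in WT and 63566462 UMIs in 14327 barcodes in Lkb1_Het. After filters on depth, mitochondrial share and doublets, 3167 and 7887 barcodes were kept, with medians of 2421 and 2318 UMIs. Clusters led by ribosomal-repeat genes, 1306 barcodes in WT and 1910 in Lkb1_Het, were set apart from the cell classes. Of the other barcodes, 1824 and 4972 were placed in a class by the UMIs of fixed marker genes, whereas 19 and 957 stayed unassigned and 18 and 48 were mixed. The class names stand for cells whose marker UMIs resemble that class. Both libraries shared 9 kept barcode sequences. The make-up of the libraries differed widely: enterocytes numbered 245 in WT and 5 in polyps, Brunner or pyloric gland cells 24 and 1027, gastric surface mucous cells 8 and 681, mast cells 1 and 88, neutrophils 0 and 24, and CD8 or gamma-delta T cells 634 and 105.

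Over all kept cells, 49 of the 50 genes held at least 20 UMIs. A gene was called where its level, in UMIs scaled to a class total of 1000000 (CPM), differed at least 1.5-fold with an interval clear of 1. In polyps 24 of the 49 genes were higher, against 27.4% of all genes measured, and 14 were lower, against 17.6%. The median log2 ratio of the 49 genes was 0.66, against 0.17 for all genes. Among the ligands 18 were higher and 9 lower of 33, and among the receptors 6 were higher and 5 lower of 16. In a mixture of cells, fewer cells of a type and less RNA per cell cannot be told apart, so most of what follows is given within cell classes.

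**Figure D1:**
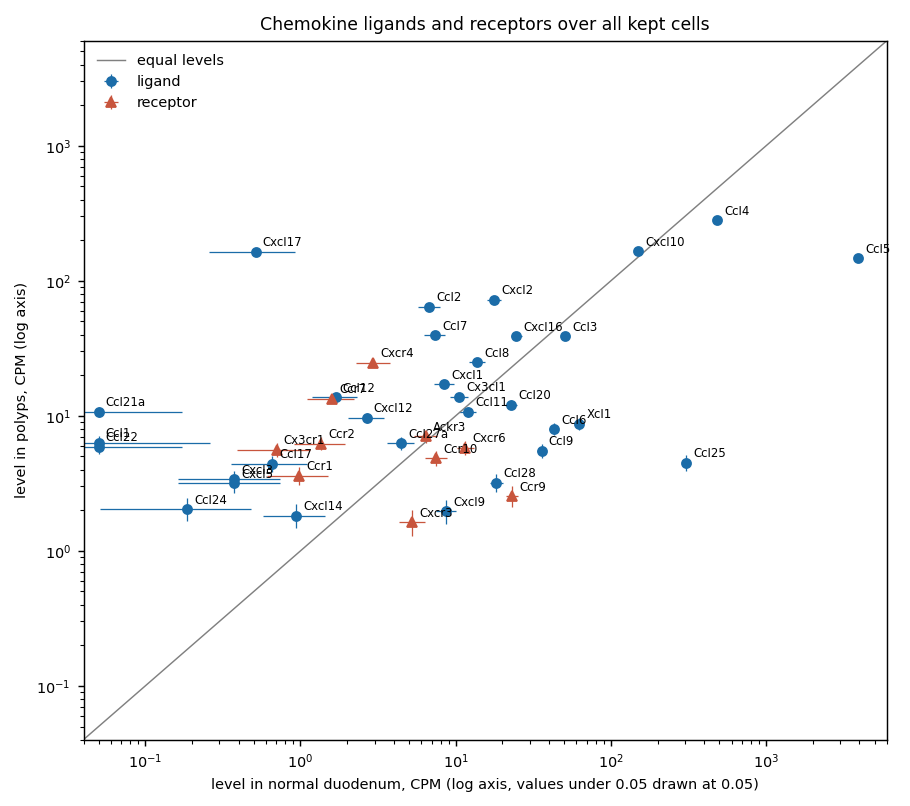
Levels of chemokine ligands (circles) and receptors (triangles) with at least 100 UMIs over all kept cells, in CPM, in normal duodenum (x axis, log) and polyps (y axis, log), with 95% counting intervals. Cxcl17 (0.514 and 165 CPM) lies farthest above the line of equal levels among members with over 1 UMI in each library, and Ccl5 (3923 and 146 CPM) and Ccl25 (306 and 4.49 CPM) lie far below it.

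Cxcl17, a mucosal chemokine of secretory epithelium, showed the largest excess in polyps among members with UMIs in both libraries, with 11 UMIs in WT and 8316 in Lkb1_Het, a 320-fold higher level (179–642). Ccl2 was 6.78 CPM in WT and 64.3 CPM in polyps (9.49-fold, 8.04–11.3), and its chromosome 11 neighbour Ccl7 was 7.34 and 39.5 CPM (5.38-fold, 4.57–6.37). The receptors Cxcr4 (8.40-fold, 63 and 1249 UMIs), Ccr7 (8.45-fold, 5.99–12.3) and Ccr2 (4.59-fold, 3.13–6.96) were also higher. Ccl25 was 68.1-fold lower (59.6–78.1), Ccl5 26.8-fold lower (26.2–27.4), and Ccr9, the receptor of Ccl25, 9.11-fold lower (7.48–11.2). Ccl22 and Ccl21a had 0 UMIs in WT, against 298 and 541 in polyps, which makes them at least 42.1-fold and 76.4-fold higher from a floor of 3 UMIs in WT.

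T cells, which patrol the epithelium and the lamina propria, numbered 810 in WT and 661 in polyps. Of 20 members measured there, 12 were higher in polyps, against 17.9% of all genes in these cells, and 6 were lower, against 17.5%. The lineage was split into CD8 or gamma-delta T cells (634 and 105), CD4 T cells (80 and 201) and T cells without either set of markers (other T cells, 96 and 355). The make-up of the lineage differed between the libraries, so values are also given within these 3 classes. The cells of the 2 libraries also lay in different clusters: 554 of the WT T cells lay in cluster 9 and 230 in cluster 2, against 0 of polyps in either, while 647 of the polyp T cells lay in cluster 8, against 12 of WT. The same held within each part, since cluster 8 held 103 of the polyp and 2 of the WT CD8 or gamma-delta T cells, 196 and 4 of the CD4 T cells, and 348 and 6 of the other T cells. Among CD8 or gamma-delta T cells 5 members were higher and 6 lower of 12 (against 10.3% and 9.81% of all genes), among CD4 T cells 3 and 5 of 15 (11.1% and 9.99%), and among other T cells 7 and 5 of 15 (13.4% and 10.7%).

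Ccl5, a T-cell and monocyte attractant released by cytotoxic lymphocytes, made up 29119 CPM of the T-cell mRNA in WT and 3161 CPM in polyps, a 9.21-fold lower level (8.95–9.49). Within CD8 or gamma-delta T cells it was 32717 CPM (32480–32955) in WT and 6110.0 CPM (5794–6439) in polyps, 5.35-fold lower (5.08–5.65). Within CD4 T cells it was 8261 and 2290.4 CPM, and within other T cells 21411 and 2842 CPM. It was therefore lower in polyps in each of the 3 parts.

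The share of CD8 or gamma-delta T cells with a Ccl5 UMI, after each cell was thinned to 1000 UMIs, was 98.7% (97.5–99.4) of 624 cells in WT and 52.5% (42.3–62.5) of 101 cells in polyps. Median depths in these cells were 3228 and 2118 UMIs. Without thinning, 632 of 634 and 58 of 105 cells held a UMI. Ccl5 UMIs were also found in a WT class that should lack the gene, and their source was not tested: 5.33% (2.87–8.94) of thinned enterocytes, whose median depth was 24954 UMIs, held one, and their level was 56.1 CPM.

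The neighbouring genes Ccl3 and Ccl4, which encode macrophage inflammatory proteins, were lower in polyp T cells as well. Ccl4 was 3387 CPM in WT and 837 CPM in polyps (4.05-fold lower, 3.82–4.30), and Ccl3 was 341 and 32.2 CPM (10.6-fold lower, 7.92–14.5). Xcl1, the lymphocyte ligand that reaches Xcr1 on cross-presenting dendritic cells, was 448 and 130 CPM (3.44-fold lower, 2.96–4.03). All of Ccl3, Ccl4 and Xcl1 were called lower in each of the 3 parts of the lineage, with Ccl4 differing least in CD4 T cells (943 and 603 CPM, 1.56-fold, 1.32–1.85).

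Cxcl10, the ligand of Cxcr3, took the opposite direction in most T cells. In CD8 or gamma-delta T cells it was 299 CPM in WT and 1492 CPM in polyps (5.00-fold higher, 4.37–5.70), and in other T cells 604 and 2214 CPM (3.66-fold, 3.12–4.32). In CD4 T cells, its leading class in both libraries, it was 2656 CPM (2469–2853) and 2471 CPM (2335–2613), a difference that was not called (1.07-fold lower, 0.98–1.18). A Cxcl10 UMI was found in 43.8% (32.7–55.3) of thinned CD4 T cells in WT and in 50.0% (42.8–57.2) in polyps, against 1.23% (0.254–3.55) of thinned enterocytes in WT. Plasma cells held 39.2% of the WT Cxcl10 UMIs, at 486 CPM in WT and 361 CPM in polyps, while the pancreatic acinar cells of WT had 8.22 CPM.

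Of 9 receptors measured in T cells, 7 were higher in polyps, Ccr9 was lower and Cxcr3 was not called. Of all genes in these cells, 17.9% were higher and 17.5% lower. Among CD8 or gamma-delta T cells 4 receptors were higher and 1 lower of 6 (against 10.3% and 9.81% of all genes). Among CD4 T cells the counts were 3 and 1 of 8 (11.1% and 9.99%), and among other T cells 3 and 1 of 7 (13.4% and 10.7%). Cxcr4, the receptor of Cxcl12, had 11 UMIs in 810 WT T cells and 266 in 661 polyp T cells, or 3.94 and 178 CPM (45.3-fold higher, 24.9–91.9). It was higher within CD4 T cells (14.1 and 207 CPM, 14.7-fold, 5.56–54.8) and other T cells (21.7 and 183 CPM, 8.44-fold, 3.78–23.4). Among CD8 or gamma-delta T cells it rested on 1 UMI in WT and 23 in polyps.

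Ccr2, the receptor of Ccl2 and Ccl7, had 16 UMIs in WT and 149 in polyp T cells (17.5-fold higher in CPM, 10.4–31.3). Within CD4 T cells it was 3.90-fold higher (1.76–10.2) and within other T cells 4.34-fold (1.76–13.9). Among CD8 or gamma-delta T cells it was 99.9-fold higher (36.2–384), from 4 UMIs in WT. Ccr7, which guides cells to lymph nodes, was 1.79 and 52.3 CPM in the lineage (29.2-fold, 12.0–92.6). Within CD4 T cells it was 7.69-fold higher (1.93–66.7), from 2 UMIs in WT. Other T cells held 1 Ccr7 UMI in WT and 47 in polyps, and CD8 or gamma-delta T cells too few to call. The part of the changed make-up in the lineage folds was not tested. Ccr6, found on T helper 17 cells, was 3.58 and 17.4 CPM in the lineage (4.87-fold, 2.27–11.3), but 24.7 and 28.2 CPM within CD4 T cells, which was not called. Cxcr6, the receptor of Cxcl16 on tissue-resident T cells, was 86.6 and 134 CPM in the lineage (1.54-fold, 1.27–1.87). Ccr4, a receptor of Ccl17 and Ccl22, rested on 2 UMIs in WT and 18 in polyps.

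Cxcr6 was called in 1 of the 3 classes. It was higher in polyp CD8 or gamma-delta T cells (70.3 and 222 CPM, 3.16-fold, 2.26–4.37) but 120.1 and 98.5 CPM in CD4 T cells, which was not called. In other T cells it was 184.5 and 129.6 CPM (a ratio of 0.702, 0.496–1.005), also not called.

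Ccr9, the gut-homing receptor, was 148 CPM in WT T cells and 21.5 CPM in polyp T cells (6.90-fold lower, 4.81–10.2). It was lower in each part: 133 and 17.4 CPM in CD8 or gamma-delta T cells, 205 and 20.1 CPM in CD4 T cells, and 217 and 23.6 CPM in other T cells. Cxcr3 was 36.2 and 34.2 CPM in the lineage, a ratio whose interval (1.06-fold lower, 0.747–1.51) included no difference. UMIs of epithelial genes were present in these classes: Ccl25, an epithelial ligand, was 38.7 CPM in WT T cells and 9.39 CPM in polyp T cells, Cxcl17 had 0 and 39 UMIs, and the 12 enterocyte markers summed to 1946 CPM in WT and 91.6 CPM in polyp CD8 or gamma-delta T cells. The T-cell markers themselves summed to 9395 and 4387 CPM in that class, with 13 of 13 and 12 of 13 detected. The source of the epithelial UMIs and the part of either marker list in the differences above were not tested.

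**Figure D2:**
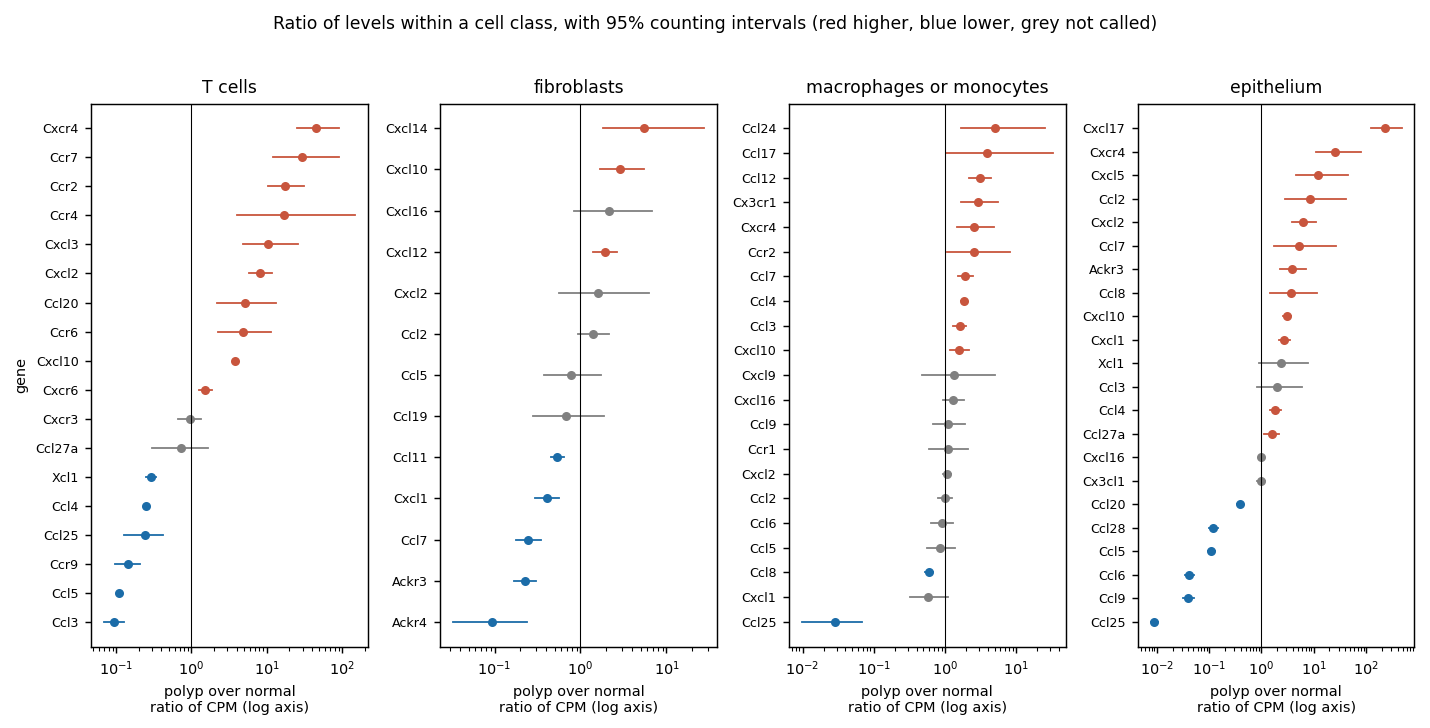
Ratio of the level in polyps to that in normal duodenum (x axis, log) for members with at least 20 UMIs within T cells, fibroblasts, macrophages or monocytes, and epithelium, with 95% counting intervals, where both libraries held a UMI. Cxcr4, Ccr7 and Ccr2 lie highest and Ccl3, Ccl5 and Ccr9 lowest in T cells, while Ccl25 lies lowest and Cxcl17 highest in epithelium.

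Genes that act with the chemokines were read from lists of receptor signalling, of inducers and of other attractants. Of 16 measured genes of the NF-kB and interleukin-17 list, which induce many chemokines, 14 were higher in polyp T cells, against 17.9% of all genes, and 1 was lower, against 17.5%, with a median log2 ratio of 1.24 against -0.04 for all genes. Within the 3 classes the counts were 9 and 0 of 14 in CD8 or gamma-delta (against 10.3% and 9.81% of all genes), 4 and 0 of 12 in CD4 (11.1% and 9.99%) and 3 and 0 of 11 in other T cells (13.4% and 10.7%). Il17a, the cytokine of T helper 17 cells, was 35.8 and 319 CPM (8.92-fold higher, 7.18–11.2) and Nfkb1 was 46.2 and 280.5 CPM (6.07-fold, 4.97–7.46). Il17a was among the leading genes of WT other T cells, a class of 96 cells in WT and 355 in polyps. These levels and the values that follow in this paragraph are for the whole lineage, and the part of its changed make-up in them was not tested. Of 25 genes of receptor signalling, 8 were higher and 9 lower, against the same 17.9% and 17.5% of all genes, and their median log2 ratio was -0.27. Rgs1, which dampens chemokine receptor signals and marks resident lymphocytes, was 3830 and 934 CPM (a ratio of 0.244, 0.230–0.258), whereas Rgs16, of the same family, was 2.15 and 40.9 CPM (19.1-fold higher, 8.27–53.9). Of 11 genes of the interferon-gamma axis, 6 were higher and 1 lower (again against 17.9% and 17.5%), and the one lower was Ifng itself, at 533 and 169 CPM. Of 6 measured genes of other chemoattractant pathways, 4 (Ccrl2, S1pr1, Gpr183 and Ltb4r1) were higher and 0 lower, against the same shares.

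Epithelium numbered 608 cells in WT, fewer than the 810 T cells there, and 2845 in polyps, where it was the largest lineage. Of 25 members measured in it, 15 were higher in polyps, against 25.2% of all genes, and 6 were lower, against 20.5%. The classes inside the epithelium differed too much in number to compare most of them: WT was led by enterocytes and polyps by gland and gastric surface mucous cells, which express stomach-type mucin genes.

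**Figure D3:**
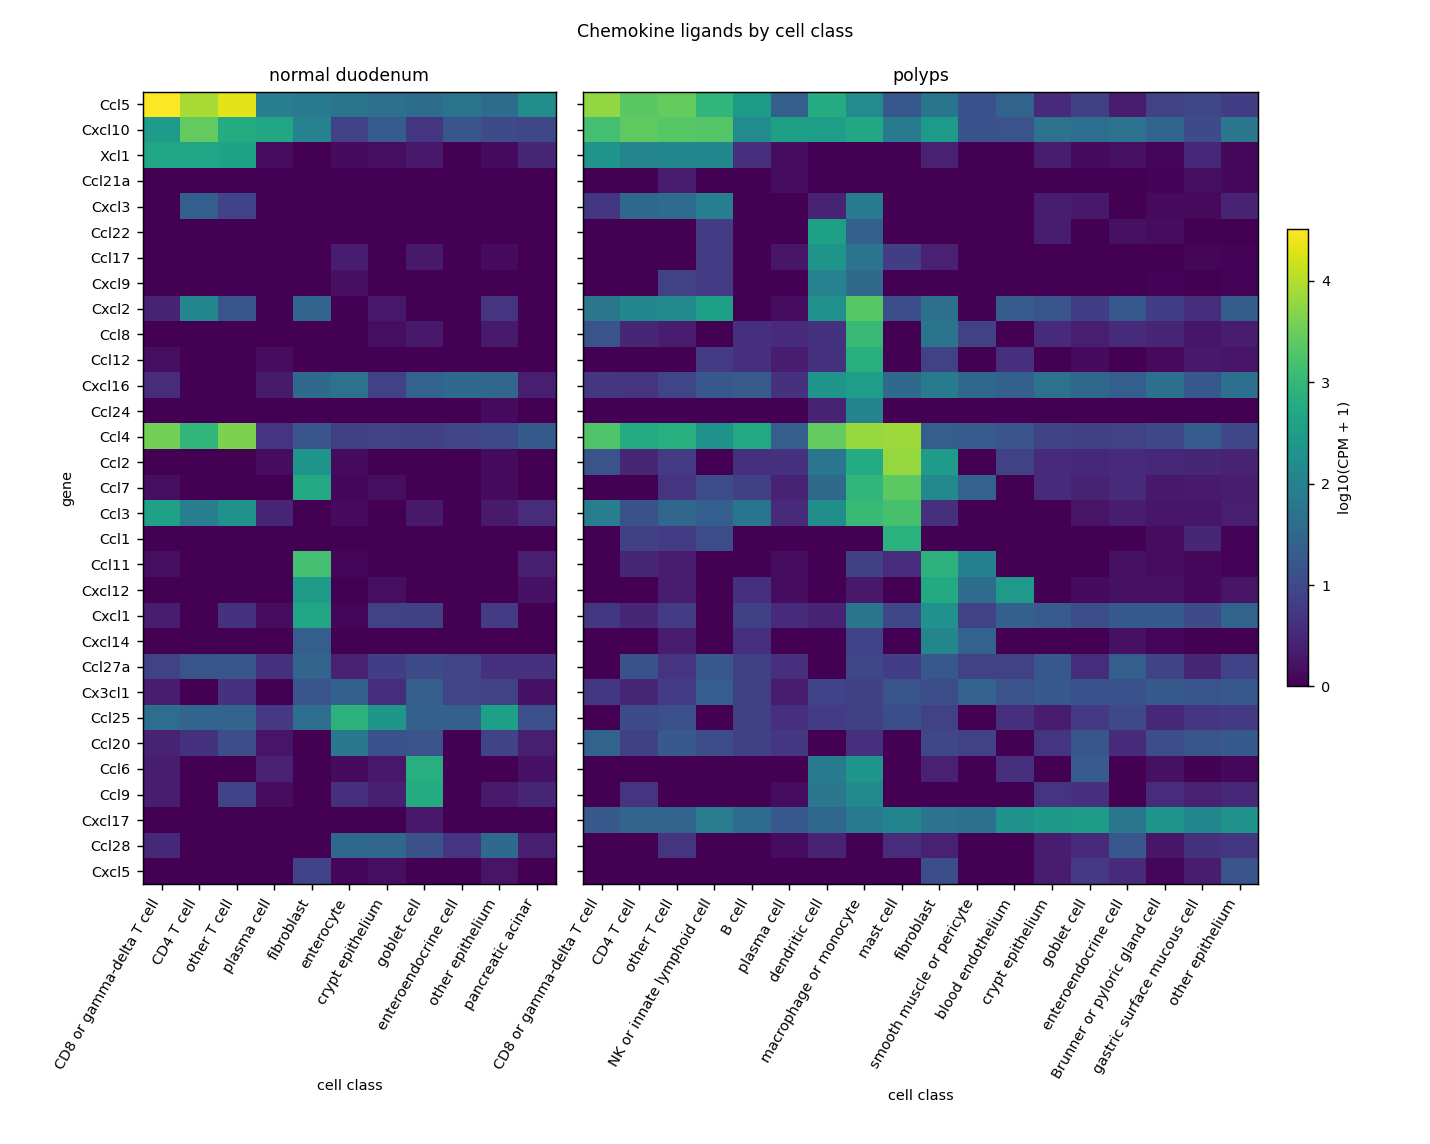
Level of each chemokine ligand with at least 100 UMIs, as log10(CPM + 1) (colour), in every cell class with at least 30 cells (columns, erythroid cells left out) in normal duodenum (left) and polyps (right). Ccl5 is brightest in T cells, Ccl25 in enterocytes, Ccl6 and Ccl9 in normal goblet cells, and Ccl2, Ccl7 and Ccl1 in polyp mast cells.

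Ccl25 had its highest level in enterocytes, the absorptive cells, at 795 CPM (772–819) in WT, followed by other epithelium at 350.4 CPM and crypt epithelium at 242 CPM. After thinning, 54.9% (48.4–61.3) of WT enterocytes held a Ccl25 UMI, against 0.69% (0.0175–3.78) of WT plasma cells, with median depths of 24954 and 18205 UMIs. In the whole epithelium it was 475 CPM in WT and 4.25 CPM in polyps (112-fold lower, 95.3–132). Polyps held 5 enterocytes, whose level was 406 CPM (149–883) from 6 UMIs. In other epithelium the levels were 350.4 CPM in WT and 4.96 CPM in polyps. The gene lies on chromosome 8 at 4325210 to 4360020 on the plus strand of mm10.

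Ccl28, the mucosal ligand for Ccr10, was 28.1 CPM in WT epithelium and 3.39 CPM in polyp epithelium (8.28-fold lower, 6.73–10.3). In WT its level was 34.0 CPM in other epithelium and 32.5 CPM in enterocytes, which do not differ beyond counting error, and in polyps enteroendocrine cells led with 15.7 CPM from 25 UMIs. The genes that led that polyp class included Gcg, Iapp, Ins1 and Ppy, hormone genes that pancreatic islets also express. Of 9 members measured in enteroendocrine cells, 4 (Cxcl1, Cxcl2, Cxcl10 and Cxcl17) were called higher in polyps, against 9.79% of all genes, and 0 were lower, against 15.9%. Where WT held 0 UMIs the call rested on the interval alone, and from the floor of 3 UMIs Cxcl1 was at least 1.57-fold, Cxcl17 at least 5.24-fold and Cxcl2 at least 1.41-fold higher, the last under 1.5-fold. The enteroendocrine cells too lay partly in different clusters. Cluster 15 held 26 of the 41 WT cells and 1 polyp cell, while cluster 12 held 15 WT cells and 239 of the 251 polyp cells. Ccl20 was 34.7 and 13.6 CPM in epithelium (2.54-fold lower, 2.23–2.90), with 65.1 CPM in WT enterocytes and 17.9 CPM in polyp other epithelium.

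Ccl6 and Ccl9, CC ligands of Ccr1 that lie next to each other on chromosome 11, had a secretory epithelial source in WT. In WT goblet cells Ccl6 was 705 CPM (653–760) and Ccl9 601 CPM (553–652), and in the 20 WT Paneth cells they were 991 and 706 CPM. Of the Ccl6 UMIs in Paneth cells, 107 of 174 came from 1 cell. In the 170 polyp goblet cells Ccl6 was 18.5 CPM (38.2-fold lower, 28.8–51.7) and Ccl9 3.19 CPM (188-fold lower, 98.5–414). In WT 34 and 47 of 68 goblet cells held a UMI of the 2 genes, in polyps 6 and 6 of 170. The goblet cells of the 2 libraries lay in different clusters: cluster 1 held 67 of the 68 in WT and 3 of the 170 in polyps, of which 85 lay in cluster 20, 40 in cluster 13 and 30 in cluster 18. Most polyp goblet cells rested on 2 markers, since 164 of the 170 dropped out where 3 were required. Their leading genes included Tff3 and Muc2 but also Chil4, Pga5, Bpifb1 and Ltf. The goblet markers summed to 83857 CPM in WT goblet cells, 16765.5 CPM in polyp goblet cells and 13015 CPM in polyp gland cells. Among polyp classes with at least 30 cells, Ccl6 and Ccl9 were both highest in macrophages or monocytes, at 228 and 141 CPM. The 17 polyp Paneth cells had Ccl6 at 904 CPM, from 2 cells.

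Cxcl17 lies on chromosome 7 (25400053 to 25412886, minus strand of mm10). In WT 9 of its 11 UMIs in kept cells came from the 8 gastric surface mucous cells, 8 of them from 1 cell, and the 24 WT gland cells held 0, which allows up to 6.40 CPM. In polyps its level was 299 CPM (279–320) in goblet cells, 251 CPM (218–289) in crypt epithelium, 233 CPM (224–243) in gland cells, 202 CPM (192–212) in other epithelium and 124 CPM (118–131) in gastric surface mucous cells. Like the polyp goblet cells, most polyp crypt cells rested on 2 markers, since 67 of 76 dropped out where 3 were required. After thinning, 19.6% (17.1–22.2) of gland cells held a Cxcl17 UMI, against 2.08% (0.766–4.46) of plasma cells, with median depths of 9884 and 7344 UMIs. In polyp classes that should lack the gene its level was 16.8 CPM in plasma cells, 28.2 CPM in CD4 T cells, 75.5 CPM in macrophages or monocytes, 107 CPM in mast cells and 201 CPM in blood endothelium, and the highest of these lay within the epithelial range. Across the epithelium Cxcl17 was 0.799 CPM in WT and 185 CPM in polyps (232-fold higher, 126–484).

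The neutrophil attractants Cxcl1, Cxcl2, Cxcl3 and Cxcl5 form a block on chromosome 5 between 90759360 and 90905938, and all 4 were called higher in polyp epithelium. Cxcl1 was 6.07 and 16.7 CPM (2.76-fold, 2.17–3.55), Cxcl2 1.36 and 8.53 CPM (6.28-fold, 3.86–10.9), Cxcl5 0.319 and 3.81 CPM (11.9-fold, 4.55–44.4), and Cxcl3 had 0 UMIs in WT and 24 in polyps. The fold of Cxcl2 was 18.3 with classes from clusters and 12.2 under a mitochondrial limit of 10%, and that of Cxcl5 was 23.4 with classes from clusters and 6.37 with 3 markers required. Cxcl3 held too few UMIs to be called with 3 markers required or under the mitochondrial limit of 10%. These are low levels, and Cxcl5 in polyp other epithelium rested on 19 cells, with 54 of 103 UMIs in 1 cell. Stromal or myeloid levels of Cxcl1 and Cxcl2 were higher: Cxcl2 was 2204 CPM in polyp macrophages or monocytes and 18877 CPM (17416–20429) in the 24 polyp neutrophils, and Cxcl1 was 193 CPM in polyp fibroblasts. For Cxcl5, polyp other epithelium (13.1 CPM) and fibroblasts (11.3 CPM from 7 UMIs) did not differ beyond counting error.

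Promoters of 3 of these genes, Cxcl1, Cxcl2 and Cxcl3, are shown for the stretch they share, with that of Cxcl10, from RefSeq (GRCm38.p6). RefSeq promoters were matched for 37 of the 50 members. Each sequence runs 5′ to 3′ on the gene's strand from base 220 to base 41 before the RefSeq start. Capitals mark matches to the kappa-B motif, the site of NF-kB, on either strand, and in Cxcl10 also to the interferon response element, which there reads GAAAGTGAAA.
Cxcl1, chr5:90891025-90891204, plus strand: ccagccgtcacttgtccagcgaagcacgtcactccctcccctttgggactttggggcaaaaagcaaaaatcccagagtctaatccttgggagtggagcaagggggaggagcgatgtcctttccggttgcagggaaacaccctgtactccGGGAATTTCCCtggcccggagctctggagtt
Cxcl2, chr5:90903679-90903858, plus strand: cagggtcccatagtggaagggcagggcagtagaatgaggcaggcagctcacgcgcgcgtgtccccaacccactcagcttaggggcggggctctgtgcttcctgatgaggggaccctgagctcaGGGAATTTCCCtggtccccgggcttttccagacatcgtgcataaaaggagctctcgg
Cxcl3, chr5:90785881-90786060, plus strand: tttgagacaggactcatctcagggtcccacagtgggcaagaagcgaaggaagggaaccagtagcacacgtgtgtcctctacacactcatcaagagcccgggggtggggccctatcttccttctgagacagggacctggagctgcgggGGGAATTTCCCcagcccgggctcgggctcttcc
Cxcl10, chr5:92348930-92349109, minus strand: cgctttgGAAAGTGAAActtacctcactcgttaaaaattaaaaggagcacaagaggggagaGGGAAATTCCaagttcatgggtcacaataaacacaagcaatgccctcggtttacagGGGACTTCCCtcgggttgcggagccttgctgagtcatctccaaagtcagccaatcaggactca
The 3 neutrophil attractants carry the same stretch of 11 bases, which matches the motif on both strands, beginning 71, 97 and 73 bases before the starts of Cxcl1, Cxcl2 and Cxcl3. Cxcl10 carries 2 kappa-B matches, beginning 159 and 103 bases before the start, and 1 interferon response element beginning 213 bases before it. A kappa-B match was found within 250 bases before the start in 3.9% of all 32851 promoters and in 7 of 41 promoters of the members (Ccl20, Ccl9, Ccr6, Cxcl1, Cxcl2, Cxcl3 and Cxcl10). The interferon response element was found in 2.98% of all promoters and in 3 of the 41 (Ccl19, Cxcl10 and Cxcl14). These matches describe letters and do not show binding.

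Several other ligands called higher in polyp epithelium were at low levels there. Ccl2, Ccl7, Ccl8, Ccl12 and Ccl1 were between 0.662 and 2.04 CPM there, against 6269.7 CPM of Ccl2 in mast cells. Cxcl10 was 10.3 and 31.4 CPM (3.05-fold, 2.54–3.69), and Cxcr4 was 0.399 and 10.3 CPM (25.7-fold, 10.9–79.6). Cxcl16, the ligand of Cxcr6, was 33.1 and 32.6 CPM (1.01-fold lower, 0.903–1.13), and Cx3cl1, the membrane-bound ligand of Cx3cr1, 15.8 and 15.3 CPM (1.03-fold lower, 0.873–1.22), and both intervals lay inside 1.5-fold in either direction. Within crypt epithelium, however, both were called higher in polyps. There Cxcl16 was 6.33 and 46.5 CPM (7.34-fold, 3.82–15.1) and Cx3cl1 2.92 and 17.6 CPM (6.02-fold, 2.17–19.1). Cluster 11 held 76 of the 78 WT crypt cells and 0 of the 76 in polyps. Neither gene was called in goblet or enteroendocrine cells. Ccl27a was 3.91 and 6.10 CPM (1.56-fold, 1.14–2.17) and was not called under a mitochondrial limit of 10% (1.34-fold). Of 10 measured genes of the interferon-gamma axis, 0 were higher and 6 lower in polyp epithelium, and of 18 genes of the NF-kB and interleukin-17 list, 8 were higher and 4 lower, against 25.2% of all genes higher and 20.5% lower.

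Fibroblasts, the matrix-forming cells of the gut wall, numbered 31 in WT and 247 in polyps, so the WT levels rest on few cells. Of 16 members measured, 6 were higher in polyps, against 9.46% of all genes, and 5 were lower, against 9.37%. Ccl11, the eosinophil attractant eotaxin, was 1471 CPM (1278–1686) in WT and 794 CPM (726–868) in polyps, 1.85-fold lower (1.57–2.18). Ccl7 was 526 and 131 CPM (4.03-fold lower, 2.90–5.59) and Cxcl1 476 and 193 CPM (2.46-fold lower, 1.80–3.35). In WT 1 fibroblast held 25 of 67 Cxcl1 UMIs and 1 held 23 of 74 Ccl7 UMIs.

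The scavenging receptors of fibroblasts were lower as well. Ackr3, which takes up Cxcl12, was 633 CPM (508–778) in WT and 143 CPM (115–176) in polyps, 4.41-fold lower (3.25–5.98), and 1 WT fibroblast held 37 of the 89 UMIs. Ackr4, which takes up Ccl19, Ccl21 and Ccl25, was 121 and 11.3 CPM from 17 and 7 UMIs (10.7-fold lower, 4.22–30.5). Cxcl12, the ligand shared by Ackr3 and Cxcr4, was 306 CPM in WT and 582 CPM in polyps (1.90-fold higher, 1.39–2.68). Ligand and scavenger thus lay in opposite directions in this class. In epithelium, by contrast, Ackr3 was called higher in polyps (3.85-fold), and over all kept cells it was not called (1.09-fold, 0.896–1.34).

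Cxcl14 was 21.3 and 118 CPM in fibroblasts (5.52-fold higher, 1.82–27.4), and Cxcl10 was 99.5 and 290.1 CPM (2.92-fold, 1.69–5.44). Cxcl13, the B-cell attractant of lymphoid stroma, had 0 UMIs in WT and 46 in polyps, at least 3.48-fold higher, and Ccl8 had 0 and 33 UMIs, at least 2.49-fold higher. Ccl2 was 213 and 297 CPM (1.39-fold, 0.942–2.12), which was not called but passed with classes from clusters (1.53-fold). Macrophage markers summed to 28.4 CPM in WT and 116 CPM in polyp fibroblasts, where Ccl8, a ligand led by macrophages, was also higher, and their part was not tested. Cxcl17 was called higher too, at 51.6 CPM in polyps, between its levels in polyp plasma cells and macrophages or monocytes.

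Macrophages or monocytes numbered 24 in WT and 350 in polyps. Of 26 members measured, 14 were higher in polyps, against 12.6% of all genes, and 2 were lower, against 10.5%, with a class median log2 ratio of 0.21 over all genes. Enterocyte markers summed to 40462 CPM in the WT class and to 112 CPM in the polyp class, and Ccl25 was 219 and 6.21 CPM, and the part of these epithelial UMIs in the ratios was not tested. Calls that held under all 4 alternatives tried (classes from clusters, 3 markers, a mitochondrial limit of 10% and at least 1000 UMIs) were Ccl12, Ccl24, Cx3cr1 and Cxcl3. With 3 markers required the folds were smaller, at 1.999 for Ccl12, 3.37 for Ccl24 and 1.92 for Cx3cr1. Calls of Ccl3, Ccl4 and Cxcl10 were lost with 3 markers required (1.04-fold, 1.26-fold and 1.07-fold), as was that of Ccl7, and with that setting Ccl2 was called lower (a ratio of 0.646).

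Ccl12, another mouse ligand of Ccr2, was 219 CPM in WT and 672 CPM in polyps (3.07-fold higher, 2.16–4.50; relative to the class median 2.66-fold, 1.88–3.90). Cx3cr1, the fractalkine receptor of resident macrophages, was 86.3 and 256 CPM (2.96-fold, 1.70–5.64), and Ccl24, an eosinophil attractant of alternatively activated macrophages, 19.9 and 102 CPM (5.14-fold, 1.71–25.4), with 44 of 99 polyp UMIs in 1 cell. Ccl8 was 1899 CPM in WT, 128 of 286 UMIs from 1 cell, and 1143 CPM in polyps (1.66-fold lower, 1.45–1.89), a call lost under a mitochondrial limit of 10% (a ratio of 0.778). Ccl4 was 3598 and 6681 CPM (1.86-fold, 1.70–2.03), and 305 of the 542 WT UMIs came from 1 cell. Ccl2 was 604 and 602 CPM and was not called.

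Mast cells, effector cells of type 2 immunity, numbered 88 in polyps and 1 in WT, so their levels have no counterpart. Fcer1a, Cpa3 and Tpsab1 were among their leading genes, and all 11 mast cell markers were detected. They had the highest polyp level of 5 ligands among classes with at least 30 cells: Ccl2 at 6269.7 CPM (6015–6532), Ccl4 at 7121 CPM (6850–7401), Ccl7 at 2392 CPM (2236–2556), Ccl3 at 1563 CPM (1437–1696) and Ccl1 at 755 CPM (669–850). Ccl4 was 1.07-fold higher than in macrophages or monocytes (1.02–1.12). A Ccl2 UMI was found in 60.8% (48.8–72.0) of 74 thinned mast cells and in 0.612% (0.167–1.56) of 654 thinned gastric surface mucous cells, with median depths of 2195.5 and 17366 UMIs. Mast cells held 70.3% of all Ccl2 UMIs, 43.7% of Ccl7 UMIs and 86.2% of Ccl1 UMIs of the kept polyp cells. Ccl1, the ligand of Ccr8, came from 12 mast cells, 1 of which held 97 of 275 UMIs.

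**Figure D4:**
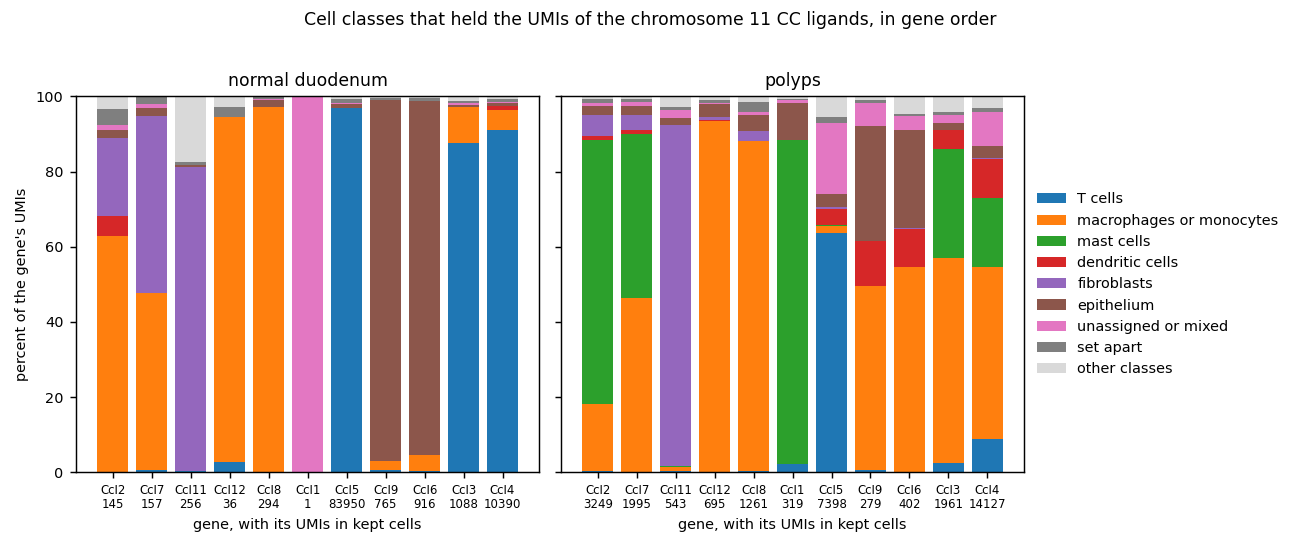
Percent of the UMIs of each CC ligand of the chromosome 11 cluster (x axis, in chromosome order, with its total UMIs in kept cells) that each group of cell classes held (stacked bars, y axis from 0 to 100%) in normal duodenum (left) and polyps (right). Ccl2 and Ccl1 UMIs in polyps lie largely in mast cells, those of Ccl7 are shared by mast cells and macrophages or monocytes, Ccl6 and Ccl9 UMIs lie almost wholly in epithelium in normal duodenum and have their largest share in macrophages or monocytes in polyps, and the single Ccl1 UMI in normal duodenum carries no information.

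These CC ligands lie in a cluster on chromosome 11 (mm10) that spans Ccl2 (82035571 to 82037453), Ccl7, Ccl11, Ccl12, Ccl8 and Ccl1 in its first stretch and Ccl5, Ccl9, Ccl6, Ccl3 and Ccl4 (83662584 to 83664683) in its second. In WT, among classes with at least 30 cells, Ccl2, Ccl7 and Ccl11 were led by fibroblasts, Ccl9 and Ccl6 by goblet cells, and Ccl5 and Ccl3 by CD8 or gamma-delta T cells. In polyps Ccl11 was again led by fibroblasts and Ccl5 by CD8 or gamma-delta T cells, Ccl2, Ccl7, Ccl1, Ccl3 and Ccl4 were led by mast cells, and Ccl12, Ccl8, Ccl9 and Ccl6 by macrophages or monocytes. The 24 macrophages or monocytes of WT fell under that size; they had Ccl2 at 604 CPM, above the 213 CPM of fibroblasts.

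Dendritic cells (10 in WT, 95 in polyps) carried the attractants of Ccr4. In polyps Ccl22 was 370.1 CPM (321–424) and Ccl17 217 CPM (180–259), with UMIs in 20 and 19 cells, and these were their highest polyp levels. Ccr7 was 500.1 CPM (443–563) and Xcr1, the receptor of Xcl1 on cross-presenting cells, 66.8 CPM (47.0–92.1). In WT 169 of 178 Cxcl9 UMIs came from 1 dendritic cell, so the WT level of 1737 CPM rests on that cell, against 99.3 CPM in polyps.

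B cells (11 in WT, 148 in polyps) held Ccr7 at 602 and 357 CPM, and Cxcr5, the receptor of Cxcl13, at 82.1 and 46.2 CPM from 3 and 15 UMIs. The 24 neutrophils of polyps held 12 of the 15 Cxcr2 UMIs, at 368 CPM (190–642), with Ccr1 at 1011 CPM (696–1420) and Cxcr4 at 889 CPM (595–1276). The 9 lymphatic endothelial cells of polyps held 526 of the 541 UMIs of Ccl21a, the lymphatic ligand of Ccr7, 272 of them in 1 cell. Blood endothelium in polyps had Cxcl12 at 281 CPM (224–347).

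Plasma cells, which secrete IgA in the gut, numbered 147 in WT and 294 in polyps, with 142 of the WT cells in cluster 4 and 278 of the polyp cells in cluster 27. Of 8 members measured, 6 were higher in polyps, against 38.1% of all genes, and 1 was lower, against 3.1%. The median log2 ratio of all genes in this class was 0.62, so ratios are read against it. Ccr10 was 61.1 and 101 CPM, or 1.08-fold (0.879–1.33) relative to that median, and Ccr9 had 35 and 58 UMIs, or 1.20-fold (0.777–1.89). On the relative scale neither was called. Plasma cells held 158 of the 160 Ccr10 UMIs in WT and 235 of 246 in polyps.

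**Figure D5:**
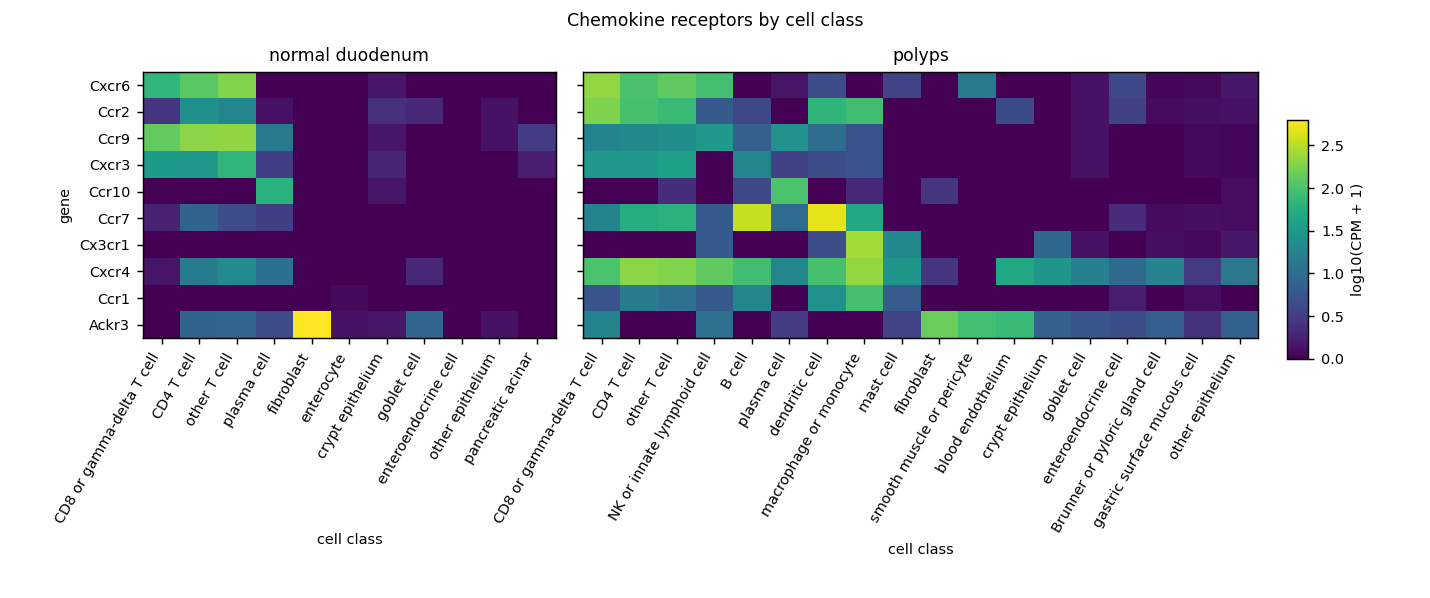
Levels of chemokine receptors with at least 100 UMIs, as log10(CPM + 1) (colour), in every cell class with at least 30 cells (columns, erythroid cells left out) in normal duodenum (left) and polyps (right). Ccr9 is brighter in normal than in polyp T cells, Ccr10 is bright in plasma cells, Ackr3 in fibroblasts, and Cxcr4 is spread over most polyp classes.

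Leading classes could be set side by side for 29 members, and for 8 of them the class was the same in both libraries. The leading class stood apart from the next, with the interval of their ratio above 1, for 14 of 19 ligands and 4 of 11 receptors in WT, and for 26 of 33 ligands and 9 of 15 receptors in polyps. WT had 11 classes with at least 30 cells and polyps 19, so a changed leader can reflect a class too small to be ranked in WT. Cxcr4 in polyps had no separate leader, since macrophages or monocytes (223 CPM) and CD4 T cells (207 CPM) did not differ beyond counting error.

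Of 33 textbook pairs of ligand and receptor, 12 had a leading class for both partners in WT and 26 in polyps. For Ccl25 and Ccr9 these were enterocytes (795 CPM) and other T cells (217 CPM) in WT, and in polyps other T cells (11.8 CPM, an epithelial ligand present there as 9 UMIs) and NK or innate lymphoid cells (31.5 CPM). For Cxcl12 and Cxcr4 they were fibroblasts (306 CPM) and other T cells (21.7 CPM) in WT, and fibroblasts (582 CPM) and macrophages or monocytes (223 CPM) in polyps. For Ccl2 and Ccr2 they were fibroblasts (213 CPM) and CD4 T cells (24.7 CPM) in WT, and mast cells (6269.7 CPM) and CD8 or gamma-delta T cells (179 CPM) in polyps. Several of these receptor leaders did not differ from the next class beyond counting error: those of Ccr9 and Cxcr4 in both libraries and of Ccr2 in WT. The polyp leader of Ccr9 rested on 6 UMIs, and the WT leaders of Cxcr4 and Ccr2 on 6 and 7. These are levels of mRNA side by side and not evidence of contact.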

How the data were processed

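Single cells of both tissues were profiled with 10x 3' v3 chemistry after collagenase digestion, per the labels' protocols. The deposited matrices hold UMI counts per gene and barcode that the authors made with Cell Ranger (3.0.0 per the submitters' processing notes, 5.0.0 per the file headers) on mm10.

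Barcodes under 500 UMIs, under 250 genes or above 25% mitochondrial UMIs were left out. Scrublet's automatic threshold marked 0 doublets, so the highest scores at the expected rate (0.8% per 1000 barcodes) were removed, 85 in WT and 573 in Lkb1_Het. Cells were clustered with scanpy 1.11.5 (2000 variable genes, 30 components, 15 neighbours, resolution 1). A cluster was set apart where its 10 leading genes included 2 or more of Lars2, AY036118, Gm26917 and Gm42418, a rule chosen after the clusters were seen. Each other cell took the class whose fixed markers, at least 2 of them, most exceeded their share of all UMIs. That share was the higher of the 2 libraries, for cells of either library. That scoring rule was chosen after the data were seen.

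UMIs were summed per class and library and given as CPM with exact Poisson intervals. Ratios have exact conditional binomial intervals and shares Clopper-Pearson intervals, computed with scipy 1.17.1. A gene with 0 UMIs in 1 library was called on its interval alone. Shares of cells with a UMI were taken after thinning each cell to 1000 UMIs. The interval code was tested on simulated data. With 1 library a group no test was run. Genes named are the members, plus genes of pathway lists (receptor signalling, inducers, interferon-gamma axis, other chemoattractants). Members and lists were chosen with earlier results of these data known. Of the members, 1 is counted in the totals and is not reported here.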

Additional observations from a re-analysis of the deposited data

Results flagged for a closer look

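Several members were called in opposite directions in different cell classes. The difference between the classes was not tested, since each group is 1 library. Ccl3 was higher in polyp macrophages or monocytes (a ratio of polyp to normal of 1.61) and lower in T cells (0.0945). The macrophage call of Ccl3 was lost with classes from clusters (1.48), with 3 markers required (1.04) and under a mitochondrial limit of 10% (1.30). Ccl4 was higher in polyp plasma cells (5.68, with 23 of 51 polyp UMIs in 1 cell) and macrophages or monocytes (1.86, lost with 3 markers at 1.26 and under the 10% limit at 1.35) and lower in T cells (0.247). Ccl7 was higher in macrophages or monocytes (1.94, lost with 3 markers and under the 10% limit, at 1.27 in the latter) and lower in fibroblasts (0.248). Ccl8 was higher in fibroblasts (at least 2.49) and lower in macrophages or monocytes (0.602, lost under the 10% limit at 0.778). Ccr9 was higher in plasma cells (1.85) and lower in T cells (0.145). Opposite calls that held under all 4 alternatives in both classes were those of Ccl20, Cxcl1 and Ackr3. Ccl20 was higher in T cells (5.15) and lower in epithelium (0.393), and no single part of the T-cell lineage held enough of its UMIs for a call. Cxcl1 was higher in epithelium (2.76) and lower in fibroblasts (0.406), as was Ackr3 (3.85 and 0.227). Ratios in plasma cells are to be read against that class's median log2 ratio of 0.62 over all genes.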

How the results depend on the processing

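Of 100 values recomputed under alternatives, 90 stayed within 1.5 times the reported count or within the interval, and 10 moved. With the mean of each cell's CPM in place of summed UMIs, 9 members were lower over all kept cells in place of 14. Of the 19 ligands with a leading class in WT, 12 had the same class under a mitochondrial limit of 10% and 8 when ranked by the thinned share of cells. Of the 11 receptors, 7 had the same class with classes from clusters and 6 by the thinned share. Leading classes in polyps changed too, within the 1.5-fold limit and so not counted as moved. Of 33 polyp ligands, 24 had the same class with classes from clusters and 23 by the thinned share. Of 15 polyp receptors, 10 had the same class with classes from clusters. The share of cells with a UMI moved with depth: 99.7% without thinning for Ccl5 in normal CD8 or gamma-delta T cells, 95.1% without thinning and 30.2% at 500 UMIs for Ccl25 in normal enterocytes, and 62.0% without thinning and 10.8% at 500 UMIs for Cxcl17 in polyp gland cells. Why these values moved was not tested beyond the change of setting itself. Leaving out the set-apart barcodes, an alternative chosen after seeing the data, gave 24 higher and 14 lower members, as before. No paired analysis was possible because each group is 1 library. The WT side of some ratios rests on few cells (31 fibroblasts, 24 macrophages or monocytes).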
